A study of Mus musculus with 24 samples.

Results

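Oculomotor neurons generated from mouse embryonic stem cells were compared with spinal motor neurons generated from mouse embryonic stem cells, across all genes of the deposited RPKM table, in which read numbers are scaled for transcript length and for sequencing depth. The members were the 12 GFP-positive samples of the 24 in the series, 6 oculomotor (OMN) and 6 spinal (SC), taken by their labels. The oculomotor samples came from an Islet1-GFP line carrying *Phox2a* under the nestin enhancer, which limits the transgene to neuronal progenitors, and were patterned for 5 days with 250 nM SAG, an agonist of the hedgehog receptor Smoothened, and 100 ng/ml FGF8. The spinal samples came from an Hb9-GFP line without that transgene and were patterned for 5 days with 500 nM SAG and 100 nM retinoic acid. GFP-positive cells were sorted from dissociated embryoid bodies and their polyadenylated RNA was sequenced, and the sorted GFP-negative cells of the same cultures formed the other 12 samples. Cell line, reporter gene, transgene and patterning factors changed together between the groups and cannot be told apart. Both reporters label more than one stage and kind of neuron, and nothing in the labels states that the replicates were separate differentiations, so p-values measure the spread between these samples.

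Motor neurons of the brain stem and of the spinal cord share an exit program built on *Isl1* and acetylcholine synthesis but arise under different position cues. Oculomotor neurons of the ventral midbrain depend on the paired-like homeodomain factor *Phox2a* and form outside the range of the *Hox* code. Spinal motor neurons depend on *Mnx1* and on the LIM homeodomain factor *Lhx3*, and retinoic acid gives them their *Hox* genes.

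A difference is given throughout as the log2 change, oculomotor minus spinal, of log2(RPKM + 1), with the standard error of the fit and n = 6 per group. On this scale the change of a gene of low level is understated. A gene was called where limma's adjusted p was under 0.05. A gene listed at 0 throughout one group is given no fold.

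The defining motor neuron markers were present in both groups, but the spinal samples varied more. *Isl1* ranged from 141 to 369 RPKM (median 245) in the oculomotor samples and from 7.63 to 123 RPKM (median 79.8) in the spinal samples, and it was not called (adjusted p = 0.153). Choline acetyltransferase, *Chat*, ranged from 1.29 to 13.1 RPKM (median 6.72) in the oculomotor samples and from 0.306 to 8.22 RPKM (median 2.7) in the spinal samples, with an adjusted p of 0.681. The spinal homeodomain factor *Mnx1*, whose regulatory sequence drives the Hb9-GFP reporter, ranged from 0.0696 to 6.91 RPKM (median 2.23) in the oculomotor samples and from 43.1 to 149 RPKM (median 97.3) in the spinal samples. The groups overlapped in *Chat* and in neither *Isl1* nor *Mnx1*. Summed over 9 general neuron markers, the oculomotor samples held 1476 to 2153 RPKM and the spinal samples 90.5 to 2137 RPKM.

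One spinal sample stood apart. Spinal replicate 4 had the lowest neuron marker sum (90.5 RPKM), the lowest *Isl1* and a sum of 5142 RPKM over 6 pluripotency markers, which ranged from 0.315 to 259 RPKM in the oculomotor samples and from 14.4 to 12400 RPKM in the spinal samples. Spinal replicate 5, at 12400 RPKM, was above it, and spinal replicate 3, at 14.4 RPKM, lay within the oculomotor range. Most of this sum was *Dppa5a*, which ranged from 0 to 246 RPKM (median 55.4) in the oculomotor samples and from 14 to 12328 RPKM (median 901) in the spinal samples, whereas the defining factor *Pou5f1* ranged from 0 to 1.39 RPKM (median 0.383) in the oculomotor samples and from 0.116 to 31.5 RPKM (median 2.13) in the spinal samples. The summed markers of endoderm reached 60.4 RPKM in spinal replicate 4 and 0.544 to 5.19 RPKM in the oculomotor samples. Of those 60.4 RPKM, 55.2 were *Epcam*, an adhesion gene that pluripotent cells express too, while *Gata6* was at 1.28 RPKM, *Gata4* at 0.459 RPKM and *Sox17* at 0 in that sample. Of the defining markers of other cell types, *Gfap*, *Sox10*, *Afp*, *Hbb-bt* and *Slc6a2* were at or near 0 in all 12 samples. Other markers of those types were detected. The highest oculomotor and spinal values were 7.35 and 15.4 RPKM for *Th*, and 2.9 and 0.429 RPKM for *Dbh*. They were 5.78 and 8.83 RPKM for *Mbp*, and 0.0754 and 10 RPKM for *Pecam1*. Summed over 8 neural progenitor markers, the oculomotor samples held 187 to 739 RPKM and the spinal samples 202 to 1506 RPKM. None of the 6 pluripotency markers and none of the 8 endoderm markers was called. In bulk samples, fewer cells of a type and less RNA per cell cannot be told apart, and the contribution of pluripotent cells to the results below was not tested beyond the fits without spinal replicates 3 and 4.

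Depth also differed by replicate number. From the size of the smallest RPKM steps, the 8 samples of replicates 1 to 4 held an estimated 1411484 to 4627498 reads and the 4 samples of replicates 5 and 6 held 6337872 to 7608019 reads. Between 9569 and 12109 genes exceeded 1 RPKM in a sample. Transcripts of the mitochondrial genome made up 3.8 to 16.67% of the summed RPKM in 11 samples and 22.63% in spinal replicate 4. Among 11850 genes with a mean of at least 1 RPKM, the SD over replicates was larger in the spinal group for 7737 (65.3%), with a median SD of 0.81 against 0.65 on the log2 scale.

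Of 19240 genes tested, 116 (0.603%) were called, 68 (0.353%) higher in oculomotor and 48 (0.249%) higher in spinal samples. The median log2 change over all tested genes was -0.04. In 275 genes (1.43%) the ranges of the groups did not overlap, and 103 of the 116 called genes were among these. The called differences were large, with a median absolute log2 change of 2.99 and a smallest one of 0.78. At an unadjusted p under 0.05, 1951 genes (10.1%) differed, 772 (4.01%) higher in oculomotor and 1179 (6.13%) higher in spinal samples. Quantile normalization of the samples gave 113 calls higher in oculomotor and 52 higher in spinal samples. Without spinal replicate 4 there were 119 calls, which included 96 of the 116 genes, and without spinal replicate 3 there were 181, which included 104 of them. The count without spinal replicate 3 was more than 1.5 times as high, and it was spread over 81 genes higher in oculomotor and 100 higher in spinal samples. Leaving out oculomotor replicate 6 gave 67 calls and leaving out oculomotor replicate 2 gave 69.

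**Figure D1:**
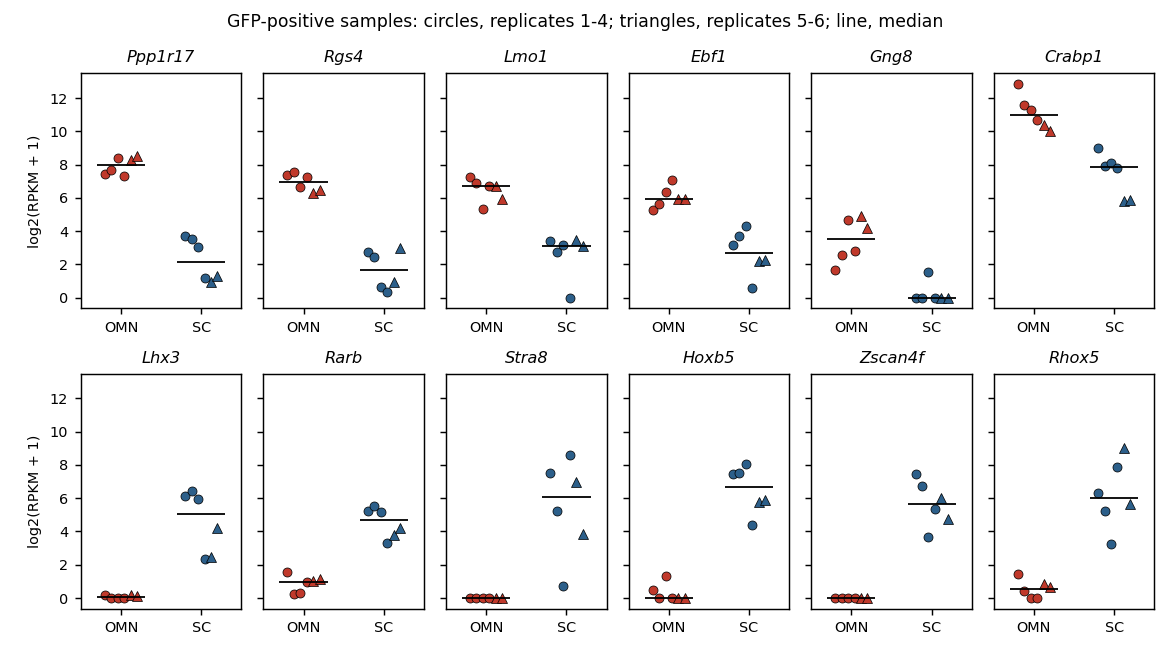
Levels of 12 called genes in every GFP-positive sample, as log2(RPKM + 1) on the y axis, with oculomotor (OMN, red) and spinal (SC, blue) samples on the x axis. Circles are replicates 1 to 4, triangles replicates 5 and 6, and the line is the median of 6 samples. The groups do not overlap in any of the 12 genes, and *Stra8* and *Zscan4f* are at 0 in every oculomotor sample.

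The difference was next examined within replicates 1 to 4 and within replicates 5 and 6, which differed in depth. Fitted within one model with a term for each set, 67 genes (0.348%) were called in replicates 1 to 4 and 21 (0.109%) in replicates 5 and 6. All 116 genes had the same sign in both sets, which follows for most of them from the groups not overlapping. The sets share no samples, so genes called in one were also read in the other. Both sets used the same lines and patterning, and whether they were separate differentiations is not stated. Replicates 1 to 4 fitted alone gave 30 called genes, 17 higher in oculomotor and 13 higher in spinal samples. All 30 of these had the same sign in replicates 5 and 6, and in all 30 both samples of the higher group lay above both of the other. Over all 17863 genes so read, 62.8% had the same sign and 32.4% were separated in the same direction. The median absolute log2 change of the 30 genes was 4.09 in replicates 1 to 4 and 3.17 in replicates 5 and 6, and the smallest in the latter was 1.27. In the other direction, replicates 5 and 6 fitted alone gave 13 called genes, of which 12 had the same sign in replicates 1 to 4 and 8 were separated there, against 65.8% and 4.12% of all 16187 genes. The 5 that were not separated were *Gm7271*, *Hoxa5*, *Npy*, *Sp8* and *Sst*, named after their values were seen. *Sst*, the somatostatin gene, was at 2427 and 2752 RPKM in oculomotor replicates 5 and 6, at 142 to 420 RPKM in oculomotor replicates 1 to 4 and at 6.46 to 227 RPKM in spinal samples.

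With the replicate set as a covariate, 191 genes (0.993%) were called and all 116 genes were among them. The test of whether the oculomotor to spinal difference itself changed between the sets called 5 genes (0.026%), *BC030500*, *Galntl6*, *Nts*, *Pnlip* and *Reg2*, and none of these was called over all 6 replicates. *Nts*, which encodes the neuropeptide neurotensin, was at 9.75 and 23.1 RPKM in spinal replicates 5 and 6 and was listed at 0 in spinal replicates 1 to 4. The pancreatic lipase gene *Pnlip* was at 7.48 and 7.99 RPKM in oculomotor replicates 5 and 6 and at 0.58 RPKM or less in the other oculomotor samples. At an unadjusted p under 0.05 this interaction held for 424 genes (2.2%).

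**Figure D2:**
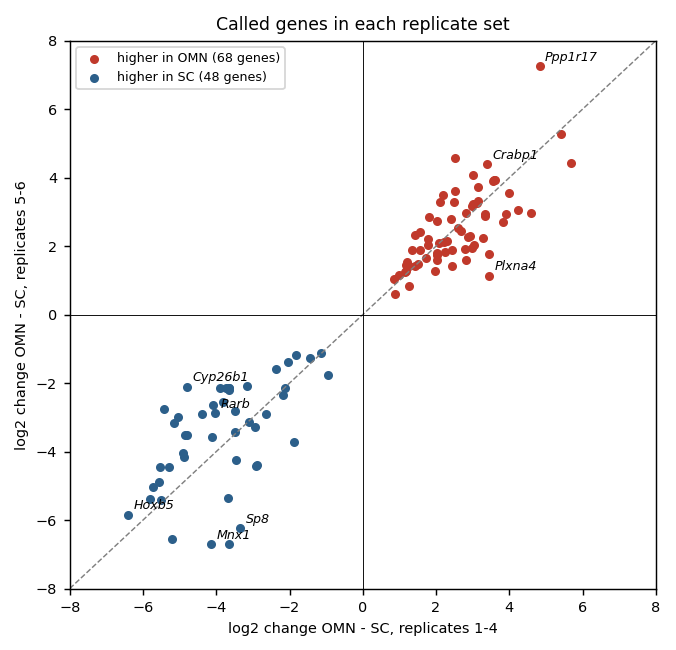
Log2 change, oculomotor minus spinal, of each called gene within replicates 1 to 4 (x axis) and within replicates 5 and 6 (y axis), with the line of equality dashed. Red points are the 68 genes higher in oculomotor and blue points the 48 higher in spinal samples. *Ppp1r17* changed by 4.83 and 7.26 and *Mnx1* by -4.15 and -6.71 in the respective sets.

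Several genes of cranial motor neurons were higher in the oculomotor samples. Of 25 genes on a list of cranial motor neuron genes, 5 were called, all higher in oculomotor samples, and 12 were higher at an unadjusted p under 0.05 against 1 lower. Of all tested genes, 0.353% were called higher in oculomotor samples, and at the unadjusted level 4.01% were higher and 6.13% lower. The list's median log2 change was 0.89, beside -0.04 over all tested genes, and 4 members were called without spinal replicate 4. A list of 31 midbrain and hindbrain patterning genes showed no such shift, with a median of -0.08. It held 1 called gene, higher in spinal samples, against 0.249% of all tested genes. At an unadjusted p under 0.05, 5 of its members were higher in oculomotor and 5 higher in spinal samples. *Phox2a*, which RPKM values cannot divide into endogenous and transgenic transcripts, ranged from 5.83 to 53.4 RPKM (median 27.9) in the oculomotor samples and from 0 to 8.59 RPKM (median 0.275) in the spinal samples (log2 change 3.46 ± 0.66, adjusted p = 0.0317). The groups overlapped in *Phox2a*, which was called in only 4 of the 12 fits that left out one sample, with adjusted p up to 0.0897. The oculomotor line alone carried *Phox2a* as a transgene, so its call is no separate evidence of cell identity. *Eya1*, a phosphatase that acts as a cofactor of sine oculis homeodomain factors, ranged from 7.41 to 15.8 RPKM (median 12.1) in the oculomotor samples and from 0.11 to 1.05 RPKM (median 0.544) in the spinal samples (log2 change 3.05 ± 0.29, adjusted p = 0.000196). *Tbx20*, a T-box factor of brain stem motor neurons, reached 6.39 RPKM or more in each oculomotor sample and at most 0.565 RPKM in a spinal one.

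Other regulators of transcription were called beside these. *Lmo1*, a LIM-only cofactor that competes for the partners of LIM homeodomain proteins, ranged from 39.3 to 154 RPKM (median 102) in the oculomotor samples and from 0 to 9.89 RPKM (median 7.69) in the spinal samples (log2 change 3.84 ± 0.55, adjusted p = 0.00502). *Ebf1*, a helix-loop-helix factor of differentiating neurons, ranged from 37.1 to 135 RPKM (median 61.2) in the oculomotor samples and from 0.472 to 18.8 RPKM (median 5.78) in the spinal samples (log2 change 3.35 ± 0.55, adjusted p = 0.0117). *Nkx6-2*, a homeodomain factor of ventral progenitors and motor neurons, ranged from 7.88 to 56.4 RPKM (median 22.4) in the oculomotor samples and from 0.94 to 3.03 RPKM (median 2.37) in the spinal samples (log2 change 2.89 ± 0.47, adjusted p = 0.0114). In each of these 3 genes every oculomotor sample exceeded every spinal sample, and all 3 stayed called in each of the 12 fits that left out one sample. *Gm12158*, next to *Ebf1*, was called in the same direction as its neighbour.

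Genes of G protein and second messenger signaling included the largest oculomotor difference of all. *Ppp1r17*, a substrate of cGMP-dependent protein kinase that inhibits protein phosphatases, ranged from 158 to 368 RPKM (median 254) in the oculomotor samples and from 0.945 to 12 RPKM (median 4.36) in the spinal samples (log2 change 5.64 ± 0.51, adjusted p = 0.000196). *Rgs4*, which speeds the shut-off of Gi and Gq signals, ranged from 78.6 to 191 RPKM (median 126) in the oculomotor samples and from 0.248 to 6.94 RPKM (median 2.67) in the spinal samples (log2 change 5.26 ± 0.49, adjusted p = 0.000196). *Gng8*, a G protein gamma subunit, ranged from 2.12 to 29.4 RPKM (median 11.8) in the oculomotor samples and from 0 to 1.9 RPKM (median 0) in the spinal samples (log2 change 3.21 ± 0.57, adjusted p = 0.0211). None of the 3 overlapped between the groups, although *Gng8* was called in only 8 of the 12 fits with one sample left out. These 3 were the only called members among 40 tested on the list, where 0.353% of all tested genes were called higher in oculomotor samples. The list's median log2 change was 0.12, and no other member passed an unadjusted p of 0.05. The small GTPase gene *Rras* (log2 change 1.84 ± 0.29, adjusted p = 0.01) and *Tshr*, which encodes the thyrotropin receptor (log2 change 0.91 ± 0.15, adjusted p = 0.0117), were also higher in oculomotor samples, the latter at no more than 1.48 RPKM.

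The promoters of 3 genes that stand for the sides of this comparison are printed below, from RefSeq on GRCm38.p6, each with 250 bases before and 50 after the annotated start, read 5′ to 3′ on the gene's own strand. All 3 lie on the minus strand, *Rgs4* at chr1:169747593-169747892, *Mnx1* at chr5:29478421-29478720 and *Rarb* at chr14:16575427-16575726. *Rgs4* is among the 3 genes with the largest oculomotor difference, *Mnx1* is the reporter gene of the spinal line, and *Rarb* is the retinoic acid receptor gene described further on. Capitals mark every match on either strand to 3 motifs, which are the DR5 retinoic acid response element (a direct repeat of nuclear receptor half-sites spaced by 5 bases), TAATTA and CAGCTG.
Rgs4: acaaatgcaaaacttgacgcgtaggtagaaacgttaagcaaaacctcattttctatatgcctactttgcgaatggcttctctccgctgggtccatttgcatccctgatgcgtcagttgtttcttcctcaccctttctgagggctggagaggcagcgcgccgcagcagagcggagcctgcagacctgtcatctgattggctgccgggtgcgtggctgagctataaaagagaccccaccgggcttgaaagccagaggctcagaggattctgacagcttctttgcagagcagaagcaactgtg
Mnx1: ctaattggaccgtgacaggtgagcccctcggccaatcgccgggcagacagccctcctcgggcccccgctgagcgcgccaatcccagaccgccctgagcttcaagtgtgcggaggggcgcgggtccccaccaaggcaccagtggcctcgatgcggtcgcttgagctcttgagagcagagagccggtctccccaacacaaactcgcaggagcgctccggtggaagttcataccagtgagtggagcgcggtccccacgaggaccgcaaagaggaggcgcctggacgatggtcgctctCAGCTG
Rarb: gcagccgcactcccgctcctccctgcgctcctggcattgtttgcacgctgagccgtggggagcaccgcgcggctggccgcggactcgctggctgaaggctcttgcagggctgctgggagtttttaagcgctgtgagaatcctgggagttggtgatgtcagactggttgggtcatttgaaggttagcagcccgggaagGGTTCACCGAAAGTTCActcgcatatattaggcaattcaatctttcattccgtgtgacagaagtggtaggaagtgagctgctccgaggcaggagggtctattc
The *Rarb* promoter held a DR5 element that begins 53 bases before the start, and the *Mnx1* window held CAGCTG at its end. Over 32851 promoters of the same length, the DR5 element was present in 0.0974%, TAATTA in 5.29% and CAGCTG in 16.3%. *Rarb* was the only called gene with a DR5 match in these windows, and the *Rgs4* window held none of the 3 motifs. Promoters were found by symbol for 48 of the 68 and 30 of the 48 called genes, too few to compare the shares of motifs between the groups.

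Single members of several axon guidance and adhesion families were called. *Sema6d*, a transmembrane semaphorin, was at 11 to 30.3 RPKM in the oculomotor samples and at 0.218 to 2.01 RPKM in the spinal samples (log2 change 3.16 ± 0.31, adjusted p = 0.000196). It was the only called gene of 20 semaphorins tested, where 0.353% of all tested genes were called higher in oculomotor samples. At an unadjusted p under 0.05, 1 semaphorin was higher in oculomotor and 2 were higher in spinal samples (15%, against 10.1% of all tested genes). *Plxna4*, a plexin that transduces semaphorin signals, ranged from 7.59 to 31 RPKM (median 15.9) in the oculomotor samples and from 0.29 to 4.04 RPKM (median 1.85) in the spinal samples (log2 change 2.68 ± 0.49, adjusted p = 0.0237). Within replicates 5 and 6 the change of *Plxna4* was 1.14, against 3.46 within replicates 1 to 4. *Rtn4rl1*, a relative of the Nogo receptor, ranged from 4.46 to 33.1 RPKM (median 7.86) in the oculomotor samples and from 0 to 1.21 RPKM (median 0.191) in the spinal samples (log2 change 3.21 ± 0.49, adjusted p = 0.00833). *Rgmb*, a BMP co-receptor of the repulsive guidance family, ranged from 27.2 to 61.8 RPKM (median 36.5) in the oculomotor samples and from 7.52 to 22.4 RPKM (median 8.69) in the spinal samples (log2 change 1.67 ± 0.31, adjusted p = 0.0298). These 4 genes were separated without overlap between the groups.

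Of 18 cadherin genes tested, taken by their *Cdh* symbols, 2 were called, both higher in oculomotor samples, against 0.353% of all tested genes. At an unadjusted p under 0.05 there were 3 higher in oculomotor and 3 higher in spinal samples (33.3%, against 10.1% of all tested genes). *Cdh6* ranged from 9.74 to 20 RPKM (median 15) in the oculomotor samples and from 0 to 2.87 RPKM (median 1.45) in the spinal samples (log2 change 2.71 ± 0.36, adjusted p = 0.00274), and *Cdh12* reached 1.3 to 6.41 RPKM in oculomotor samples and 0.922 RPKM at most in spinal ones (log2 change 1.92 ± 0.35, adjusted p = 0.0237). The immunoglobulin adhesion gene *Sdk1* (log2 change 2.10 ± 0.43, adjusted p = 0.0445) was called in 1 of the 12 fits that left out a sample. *Prtg*, which encodes the immunoglobulin family receptor protogenin of the early neural tube, ranged from 38.1 to 98.4 RPKM (median 59.7) in the oculomotor samples and from 1.91 to 32 RPKM (median 12) in the spinal samples (log2 change 2.51 ± 0.48, adjusted p = 0.0319). A separate list of 52 axon guidance receptors and ligands, which does not include the 4 genes above, held no called gene. At an unadjusted p under 0.05, 7 were higher and 4 lower in oculomotor samples (21.2%, against 10.1% of all tested genes). The list's median log2 change was -0.04.

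Single members of several families of excitability and transmission were called, where 0.603% of all tested genes were called. *Kcnj12*, an inwardly rectifying potassium channel, ranged from 5.33 to 27.4 RPKM (median 9.79) in the oculomotor samples and from 0 to 4.54 RPKM (median 0.317) in the spinal samples (log2 change 2.87 ± 0.47, adjusted p = 0.0133), and it was the only one of 78 potassium channel genes tested that was called. *Chrnb4*, a nicotinic acetylcholine receptor subunit, ranged from 5.42 to 20 RPKM (median 15.5) in the oculomotor samples and from 0.0688 to 5.43 RPKM (median 1.56) in the spinal samples (log2 change 2.58 ± 0.48, adjusted p = 0.0265). The groups met at about 5.4 RPKM in *Chrnb4*, which was called in 5 of the 12 fits with one sample left out. *Cacng3*, an auxiliary subunit of AMPA receptors, was higher in oculomotor samples at a low level, 0.698 to 2.84 RPKM against 0.0996 RPKM at most. In the opposite direction, *Rims1*, a scaffold of the presynaptic active zone, ranged from 0 to 0.295 RPKM (median 0.083) in the oculomotor samples and from 1.18 to 1.74 RPKM (median 1.49) in the spinal samples (log2 change -1.14 ± 0.17, adjusted p = 0.00688). No gene of 11 sodium channels, 17 ionotropic glutamate receptor subunits or 15 GABA receptor subunits was called. At an unadjusted p under 0.05 these families held 0, 3 and 2 genes, all 5 higher in spinal samples. Their shares were 0, 17.6 and 13.3%, against 10.1% of all tested genes. *Gfra1*, the GDNF receptor subunit, was called of 16 neurotrophic factor receptors (log2 change 1.75 ± 0.36, adjusted p = 0.05), at the edge of the threshold and in 2 of the 12 fits that left out a sample.

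The most abundant called gene was *Crabp1*, a cytoplasmic retinoic acid binding protein. It ranged from 1051 to 7366 RPKM (median 2083) in the oculomotor samples and from 55.5 to 505 RPKM (median 233) in the spinal samples (log2 change 3.73 ± 0.64, adjusted p = 0.0173). *Gamt*, the methyltransferase that completes creatine synthesis, ranged from 42.3 to 71.5 RPKM (median 56.1) in the oculomotor samples and from 1.15 to 20.8 RPKM (median 2.99) in the spinal samples (log2 change 3.36 ± 0.54, adjusted p = 0.0107). *Baiap2l1*, which bends membranes and binds actin, ranged from 24 to 64.7 RPKM (median 51.5) in the oculomotor samples and from 0.387 to 5.78 RPKM (median 2.66) in the spinal samples (log2 change 3.71 ± 0.42, adjusted p = 0.0006). *Snx18*, a sorting nexin, ranged from 103 to 185 RPKM (median 132) in the oculomotor samples and from 13.1 to 55.7 RPKM (median 36.3) in the spinal samples (log2 change 2.15 ± 0.40, adjusted p = 0.0249). All 6 oculomotor samples exceeded all 6 spinal samples in each of the 4 genes of this paragraph.

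The 12 largest oculomotor differences also included *Fam163a* (log2 change 3.18 ± 0.36, adjusted p = 0.0006) and *Fam212b* (log2 change 2.93 ± 0.46, adjusted p = 0.00864), the latter listed by RefSeq as *Inka2*. *Tmem2*, listed by RefSeq as *Cemip2*, was among the 5 most abundant oculomotor genes at 47.9 to 129 RPKM against 12.4 to 38.4 RPKM. *Rprl3*, an RNA related to the catalytic RNA of ribonuclease P, ranged from 5.49 to 67.4 RPKM (median 18.7) in the oculomotor samples and from 0 to 0.883 RPKM (median 0) in the spinal samples (log2 change 4.06 ± 0.50, adjusted p = 0.00135). *Rprl3* has near-identical relatives, and its value is uncertain because reads may belong to any of them. *Lin28b*, which blocks maturation of let-7 microRNAs, was the only called gene of the pluripotency list and was higher in oculomotor samples (log2 change 1.72 ± 0.33, adjusted p = 0.035), against the direction of most of that list.

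*Hox* genes, which set position along the body axis, were among those higher in spinal samples. Of 31 *Hox* genes tested, 6 were called and 16 were higher in spinal samples at an unadjusted p under 0.05, against 0.249% and 6.13% of all tested genes. None was higher in oculomotor samples at that level, and the median log2 change was -0.79. *Hoxb5* ranged from 0 to 1.54 RPKM (median 0) in the oculomotor samples and from 20.1 to 265 RPKM (median 116) in the spinal samples (log2 change -6.21 ± 0.56, adjusted p = 0.000196). *Hoxa5* ranged from 0.208 to 28.8 RPKM (median 3.77) in the oculomotor samples and from 21.8 to 251 RPKM (median 155) in the spinal samples (log2 change -4.67 ± 0.84, adjusted p = 0.0218), and its highest oculomotor sample exceeded its lowest spinal one. *Hoxb6* was listed at 0 in all 6 oculomotor samples and ranged from 3.66 to 79.2 RPKM (median 30) in the spinal samples (adjusted p = 0.00391). *Hoxb4*, *Hoxc5* and *Hoxd3* completed the 6, so that each of the 4 clusters was represented and every called member was of paralog groups 3 to 6. *Hoxb5os* overlaps both *Hoxb5* and *Hoxb6*, and its separate value cannot be told from theirs without strand. Without spinal replicate 4 only 28 members passed the filter, 7 were called and the median was -1.63, which covers fewer genes than the -0.79 above.

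Genes of retinoid handling were split between the groups. Of 22 tested, 3 were called higher in spinal and 1 higher in oculomotor samples, 9 and 3 were so at an unadjusted p under 0.05, and the median log2 change was -0.85. The respective shares of all tested genes were 0.249% and 0.353% called, and 6.13% and 4.01% at the unadjusted level. *Rarb*, the retinoic acid receptor whose promoter is printed above, ranged from 0.179 to 1.92 RPKM (median 0.982) in the oculomotor samples and from 8.77 to 45.5 RPKM (median 25.8) in the spinal samples (log2 change -3.65 ± 0.43, adjusted p = 0.000788). *Cyp26b1*, an enzyme that degrades retinoic acid, ranged from 0 to 0.355 RPKM (median 0) in the oculomotor samples and from 1.58 to 97.6 RPKM (median 15.7) in the spinal samples (log2 change -3.89 ± 0.77, adjusted p = 0.038). No spinal sample of *Rarb* fell within the oculomotor range, and it stayed called in each fit that left out a sample, whereas *Cyp26b1* was called in 3 of 12. *Crabp1* went the other way with medians of 2083 RPKM in oculomotor and 233 RPKM in spinal samples. *Stra8*, a gene of meiotic entry named for its stimulation by retinoic acid, was listed at 0 in all 6 oculomotor samples and ranged from 0.641 to 384 RPKM (median 80) in the spinal samples (adjusted p = 0.0298), and it was called in 4 of the 12 fits with one sample left out.

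Homeodomain and other regional factors were also higher in spinal samples. *Lhx3* ranged from 0 to 0.154 RPKM (median 0.0475) in the oculomotor samples and from 4.12 to 84.4 RPKM (median 38.7) in the spinal samples (log2 change -4.50 ± 0.69, adjusted p = 0.00833). *Lhx1*, a LIM factor of lateral motor column and interneurons, ranged from 0 to 0.212 RPKM (median 0) in the oculomotor samples and from 4.43 to 22.8 RPKM (median 6.37) in the spinal samples (log2 change -3.12 ± 0.38, adjusted p = 0.00117). *Sp8*, a zinc finger factor, ranged from 0 to 3.75 RPKM (median 0.309) in the oculomotor samples and from 3.43 to 136 RPKM (median 43.1) in the spinal samples (log2 change -4.31 ± 0.73, adjusted p = 0.0151). In *Lhx3* and *Lhx1* the groups were far apart, while in *Sp8* the highest oculomotor sample (3.75 RPKM) passed the lowest spinal one (3.43 RPKM). *Prdm8* (log2 change -3.16 ± 0.53, adjusted p = 0.0151), *Pou3f3* (log2 change -2.73 ± 0.53, adjusted p = 0.0353), *Zfp503* (log2 change -2.50 ± 0.51, adjusted p = 0.0434) and *Sox9* (log2 change -2.23 ± 0.45, adjusted p = 0.042), a factor of neural progenitors, followed, and all but *Prdm8* overlapped between the groups and were called in 2 or fewer of the 12 fits with one sample left out. On the list of 30 spinal motor column genes, 3 were called higher in spinal samples (*Mnx1*, *Lhx3*, *Lhx1*) and 1 higher in oculomotor samples (*Nkx6-2*), against 0.249% and 0.353% of all tested genes. The spinal cells were sorted by the reporter of *Mnx1*, so its call is no separate evidence of cell identity.

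*Zscan4* genes, which mark the 2-cell embryo and a passing state of embryonic stem cells, were detected in every spinal sample and called in 7 of 8 members. *Zscan4f* was listed at 0 in all 6 oculomotor samples and ranged from 11.8 to 177 RPKM (median 51.1) in the spinal samples (adjusted p = 0.000196), and *Zscan4c*, *Zscan4d* and *Zscan4e* were likewise listed at 0 in all 6 oculomotor samples. The 8 include pseudogenes and are near-identical in sequence, so reads may be shared among them and the 7 are not independent genes. On the list of 20 2-cell state genes 4 were called and 11 were higher in spinal samples at an unadjusted p under 0.05, against 0.249% and 6.13% of all tested genes. All 20 estimates were negative, with a median log2 change of -1.09. The called genes without formal names *Gm13040*, *Gm13043*, *Gm13057*, *BC080695*, *Gm2016*, *Gm2056*, *Gm5039*, *Gm4312* and *Gm20767* had the same pattern, 7 of the 9 listed at 0 throughout the oculomotor group.

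Germline genes that are silenced in somatic tissue by DNA methylation mostly had estimates of the same sign. Of 38 tested, 2 were called (*Rhox5* and *Stra8*), 22 were higher in spinal samples at an unadjusted p under 0.05 and none was higher in oculomotor samples, with 37 negative estimates and a median of -0.95. Of all tested genes, 0.249% were called higher in spinal samples and 6.13% were higher there at the unadjusted level. *Rhox5*, an X-linked homeobox gene, ranged from 0 to 1.71 RPKM (median 0.468) in the oculomotor samples and from 8.43 to 514 RPKM (median 64.2) in the spinal samples (log2 change -5.65 ± 0.76, adjusted p = 0.0028). Outside that list, *Fmr1nb*, a testis gene on the X chromosome, ranged from 0 to 0.46 RPKM (median 0) in the oculomotor samples and from 0.617 to 81.5 RPKM (median 28.3) in the spinal samples (log2 change -4.25 ± 0.81, adjusted p = 0.0309). *Rec8*, a subunit of meiotic cohesin and also outside it, ranged from 0 to 1.72 RPKM (median 0) in the oculomotor samples and from 3.08 to 29.9 RPKM (median 9.15) in the spinal samples (log2 change -3.14 ± 0.55, adjusted p = 0.0199). The pluripotency list, of 29 genes, had a median of -1.42 with 14 members higher in spinal and 2 higher in oculomotor samples at an unadjusted p under 0.05, against 6.13% and 4.01% of all tested genes.

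These gene groups moved with the pluripotency marker sum in part. Spinal replicate 3, which had the lowest sum, was also the lowest spinal sample in *Zscan4f* (11.8 RPKM), *Rhox5* (8.43 RPKM) and *Stra8* (0.641 RPKM). Spinal replicate 4 was highest in *Stra8* (384 RPKM) and *Pou5f1* (31.5 RPKM), but its *Zscan4f* level of 39.3 RPKM lay below that of replicates 1, 2 and 5. Without spinal replicate 4, 4 of 20 2-cell genes, 2 of 37 germline genes and 7 of 8 *Zscan4* genes were called, and 17 germline genes passed an unadjusted p of 0.05. Over all tested genes, that fit called 57 higher in spinal samples, against 48 with all samples. Without spinal replicate 3, 5 of 20 2-cell genes, 6 of 38 germline genes and 6 of 29 pluripotency genes were called higher in spinal samples. Calls higher in spinal samples also rose over all tested genes in that fit, to 100.

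**Figure D3:**
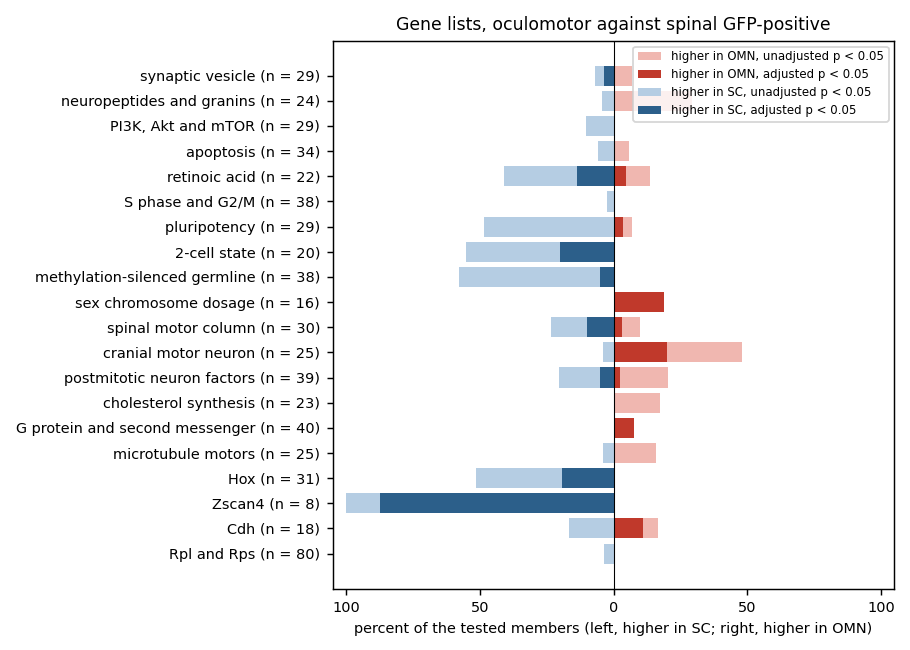
Percent of the tested members of 20 gene lists and families that differed between oculomotor and spinal GFP-positive samples, with members higher in spinal samples to the left and members higher in oculomotor samples to the right. Pale bars are members at an unadjusted p under 0.05 and dark bars those with an adjusted p under 0.05. In all, 7 of 8 *Zscan4* genes were called, and none of the 29 PI3K, Akt and mTOR genes or of the 80 ribosomal protein genes.

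Lists of this size are expected to hold few calls when 0.603% of all tested genes were called, so a list without one says little about its members. None was called among 80 ribosomal protein genes, 39 proteasome genes, 36 complex I genes, 22 glycolysis genes, 34 apoptosis genes, 29 genes of PI3K, Akt and mTOR signaling, 32 motor neuron disease genes or 43 calcium handling genes, with medians between -0.28 and 0.30. Of 38 S phase and G2/M genes 34 had negative estimates and the median was -0.60, but 1 passed an unadjusted p of 0.05. Of 23 genes of cholesterol synthesis 20 had positive estimates, with a median of 0.45, and 4 passed an unadjusted p of 0.05, none of which did so without spinal replicate 4. Neuropeptides and granins held 7 genes higher in oculomotor and 1 higher in spinal samples at an unadjusted p under 0.05 among 24 tested, none of them called. That was 33.3% of the list, against 10.1% of all tested genes.

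The GFP-negative cells of the same cultures were used to ask which differences were also found outside the sorted neurons. Between the GFP-negative fractions, 213 of 22179 genes (0.96%) were called, 0.41% higher in oculomotor and 0.55% higher in spinal cultures. GFP-negative spinal replicate 2 stood apart, with 76.26% of its summed RPKM in 10 genes against 10.37 to 20.38% in the other 11, and leaving it out changed the count by less than 1.5 times. The count was 444 without GFP-negative spinal replicate 4, 128 without spinal replicate 6, and 115, 130 and 141 without oculomotor replicates 2, 4 and 6 of that fraction. Of the 68 genes higher in oculomotor GFP-positive samples, 9 (13.2%) were called in the same direction in GFP-negative samples, and of the 48 higher in spinal samples 15 (31.2%) were, none in the opposite direction in either case. The median log2 change in the GFP-negative fractions was 0.13 for the former and -1.34 for the latter. The interaction of fraction and culture was called for 71 genes (0.32%) in all, for 72 without GFP-negative spinal replicate 2 and for 234 without GFP-negative spinal replicate 4, and for 40 of the 116, 36 of them among those higher in oculomotor and 4 among those higher in spinal samples. With the replicate number as a block, which joins the fractions of one culture, the interaction was called for 453 genes (2.04%) in all and for 57 of the 116, divided into 44 and 13. The interaction contains the GFP-positive difference by which the 116 were chosen, so a raised share among them follows in part from that choice.

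The neuronal regulators of the oculomotor group were among those that differed between fractions. *Ppp1r17* changed by -1.17 in GFP-negative samples (adjusted p = 0.435), and the interaction was 6.81 on the log2 scale (adjusted p = 4.41e-05). *Rgs4* changed by 0.03 there, with an interaction of 5.23 (adjusted p = 1.51e-05). *Tbx20*, *Sema6d*, *Ebf1*, *Lmo1* and *Cdh6* had interactions of 3.09, 3.99, 4.24, 4.08 and 3.03, all called. *Crabp1*, by contrast, had an interaction of 1.77 that was not called (adjusted p = 0.835), and *Prtg* changed by 2.43 in GFP-negative samples (adjusted p = 0.0181).

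The 6 called *Hox* genes were also called between the GFP-negative fractions, where 10 of 33 tested *Hox* genes were higher in spinal and none in oculomotor cultures. On the retinoid list 5 of 24 were higher in spinal and 1 in oculomotor cultures. *Hoxb5* changed by -5.14 in GFP-negative samples (adjusted p = 2.15e-06), *Rarb* by -2.85 (adjusted p = 0.000486) and *Cyp26b1* by -3.86 (adjusted p = 0.0107), and none of the 3 had a called interaction. *Zscan4f* changed by -1.03 in GFP-negative samples (adjusted p = 0.456), and its interaction of -4.64 was called (adjusted p = 0.00221). *Lhx1* likewise changed by -0.57 there, with a called interaction of -2.55.

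**Figure D4:**
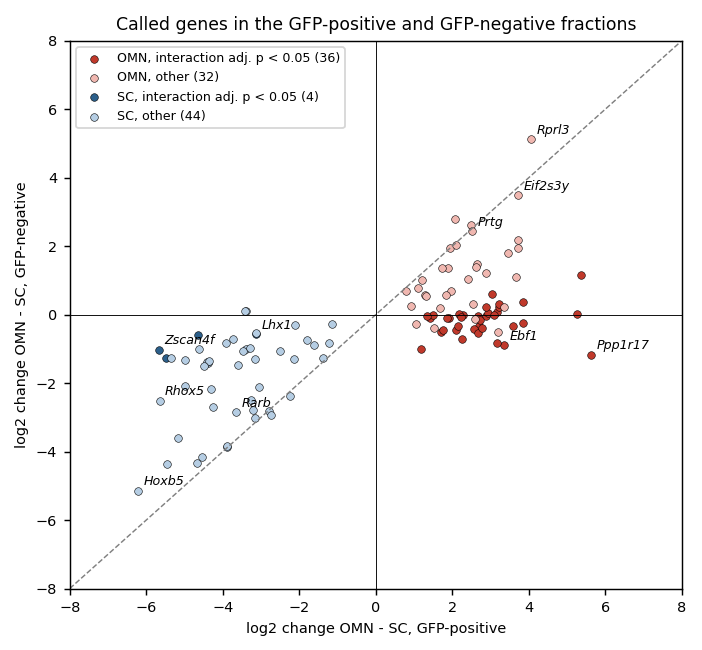
Log2 change, oculomotor minus spinal, of the 116 called genes in GFP-positive samples (x axis) and in GFP-negative samples (y axis), with the line of equality dashed. Dark points have an interaction of fraction and culture with an adjusted p under 0.05, 36 of the 68 genes higher in oculomotor and 4 of the 48 higher in spinal samples. Most dark red points lie near 0 on the y axis, while *Hoxb5*, *Eif2s3y* and *Rprl3* lie near the line.

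Several called genes were neighbours on the chromosomes. Runs with gaps of at most 500 kb between successive called genes included the 7 *Zscan4* genes on chromosome 7 (11005745 to 11614112) and 4 genes of the *Hoxb* cluster on chromosome 11. They also included 4 unnamed genes on chromosome 4 (143511343 to 143573798), 3 on chromosome 12 (87874072 to 88324026) and *Plac9a* with *Plac9b*, which are near-identical copies. On the Y chromosome 3 of 6 tested genes were called, all higher in oculomotor samples, against 0.353% of all tested genes. *Eif2s3y*, a translation initiation factor subunit, ranged from 6.63 to 20.2 RPKM (median 14.4) in the oculomotor samples and was listed at 0 in all 6 spinal samples (adjusted p = 0.000196), *Uty* was at 0 in every spinal sample, and *Ddx3y* reached 0.165 RPKM in 1 of them. These genes differed in the GFP-negative samples too, with adjusted p of 4.83e-08 for *Eif2s3y* and 9.72e-06 for *Ddx3y*.

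A stretch of chromosome 12 (build GRCm38) held *Nudt14*, *Btbd6* and *Crip1*, which were all called higher in oculomotor samples. *Nudt14*, a hydrolase of UDP sugars, ranged from 113 to 198 RPKM (median 152) in the oculomotor samples and from 16.8 to 64.8 RPKM (median 34.1) in the spinal samples (log2 change 2.07 ± 0.31, adjusted p = 0.00605). *Crip1*, a LIM domain protein, had a median of 32.3 RPKM and a highest value of 48.5 RPKM in the oculomotor samples, against 5.47 and 12.5 RPKM in the spinal samples, and the groups did not overlap (log2 change 2.50 ± 0.48, adjusted p = 0.0339). The region was chosen after these values were seen. All 20 tested genes that start within 500 kb of the start of *Nudt14* had positive estimates, with a median log2 change of 0.98 in GFP-positive and 1.18 in GFP-negative samples, and 6 of them were called in the GFP-negative samples. Over all tested genes, 43.9% had a positive estimate in GFP-positive samples, and the median was -0.04 in each fraction. In GFP-negative samples 0.96% of all tested genes were called. *Akt1*, which encodes a kinase of survival signaling, starts 280 kb away and had a log2 change of 1.72 ± 0.61 (adjusted p = 0.307), which did not pass the test. *Brf1* and *Pacs2* had changes of 1.96 and 1.74, and neither was called.

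**Figure D5:**
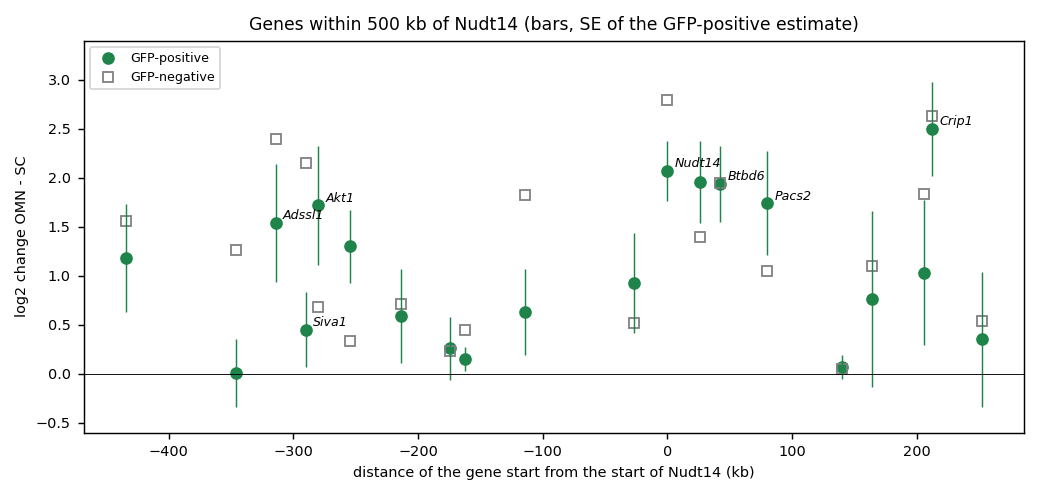
Log2 change, oculomotor minus spinal, of the 20 tested genes within 500 kb of *Nudt14* (y axis) by the distance of their start from that of *Nudt14* in kb (x axis). Green points are GFP-positive samples with the standard error of the estimate and open squares GFP-negative samples. All 20 green points lie above 0.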

How the data were processed

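Values were the deposited RPKM per gene and sample. Per the labels and the study's methods, the authors prepared SMART-seq2 libraries directly from lysed sorted cells, without strand or molecular identifiers, aligned reads with HISAT2 2.0.3 to mouse build mm10 and computed RPKM with rpkmforgenes, and the submitters' processing notes also name DESeq2 1.12.4. Runs on different sequencer models and with different read lengths were used, and which samples had which is not given in the sources used here.

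The 22889 entries included 25 names turned into dates and 4 duplicated names, which were tested but not named. Genes with a value above 0 in 2 or more of the 12 samples were tested with limma 3.58.1 (R 4.3.3; empirical Bayes with a mean trend) on log2(RPKM + 1) without covariates, with Benjamini-Hochberg adjustment over all tested genes. The replicate sets were fitted as a term and the GFP-negative samples in a model of all 24. The fit was tested on simulated data. Depth was estimated from the steps between low RPKM values, of which 96 to 97.9% per sample came out as whole reads within 2%. No interval or floor was computed from these estimates.

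Same-numbered GFP-positive and GFP-negative samples of a culture deviated together (correlations 0.35 to 0.70 in oculomotor and 0.39 to 0.64 in spinal cultures), so the number was used as a block for the interaction. Genes named were the 12 largest changes and 5 most abundant per direction that were called, separated, of one sign in both sets and absent from the paper's text, and up to 4 called members of each list. Other called genes were named after their values were seen, and some called genes are not reported here. The members and gene lists were chosen with earlier results of these data known. Alternatives were other pseudocounts, filters, scalings, weights, moderation, blocks and samples. Positions are from GENCODE M21 (GRCm38).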

Additional observations from a re-analysis of the deposited data

Results flagged for a closer look

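For the 27 genes chosen by size or abundance, 1 sample lay far from the other 5 of its group by Dixon's test on log2(RPKM + 1) in 8 of 47 groups that had any spread, and chance alone flags about 1 in 20 groups. In the oculomotor group these were *Cyp26b1* in replicate 2 (0.355 RPKM), *Fmr1nb* in replicate 1 (0.46 RPKM) and *Hoxc5* in replicate 1 (1.88 RPKM). In the spinal group they were *Fam163a* (1.34 RPKM) and *Gng8* (1.9 RPKM) in replicate 3, *Rtn4rl1* in replicate 1 (1.21 RPKM), *Rprl3* in replicate 4 (0.883 RPKM) and *Lmo1*, which was listed at 0 in replicate 4. All but *Lmo1* were samples above the rest of a group that was at or near 0.

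The oculomotor to spinal difference was not the same in the GFP-positive and GFP-negative fractions, by the interaction term, for 9 of the 27 genes. All 27 were chosen among genes called for their GFP-positive difference, which the interaction contains. On the log2 scale the interaction was 6.81 for *Ppp1r17*, 4.24 for *Ebf1*, 4.08 for *Lmo1*, 3.1 for *Fam163a*, 2.99 for *Gng8*, 2.91 for *Rtn4rl1*, 2.87 for *Fam212b*, 2.48 for *Snx18* and -4.64 for *Zscan4f*.

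The difference changed between replicates 1 to 4 and replicates 5 and 6, by the interaction term, for *Nts* (-3.96), *BC030500* (-3.28), *Galntl6* (-1.53), *Reg2* (-1.31) and *Pnlip* (2.96), each given as the log2 change in replicates 5 and 6 minus that in replicates 1 to 4. In 7 of the 12 fits that left out one sample, no gene had a called interaction.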

How the results depend on the processing

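The 116 genes kept their direction in every fit that tested them. The number of genes called between the GFP-positive groups was 81 to 165 without a filter, with a stricter filter (at least 1 RPKM in 6 samples), with median-ratio scaling, with quantile normalization, with robust moderation and without the mean trend. It was 229 with a pseudocount of 0.1 (101 higher in oculomotor and 128 higher in spinal samples), 260 with sample quality weights (120 and 140), 342 with all 24 samples in the fit (192 and 150) and 191 with the replicate set as a covariate. It was 30 in replicates 1 to 4 alone and 13 in replicates 5 and 6 alone. Leaving out single samples gave 67 to 181. Added after seeing the data, the covariate fit without single samples gave 102 to 327, including 206 without spinal replicate 2, 327 without spinal replicate 3 and 218 without spinal replicate 4.

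Replicate numbers did not pair the oculomotor with the spinal samples: the deviations of same-numbered samples correlated by -0.14, 0.11, 0.32, 0.02, 0.68 and 0.56, and in only 1 of 6 numbers was each sample the other's best match. The replicate block gave 73 calls, which included 62 of the 116 genes.

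Within replicates 1 to 4, 67 calls became 134 with a pseudocount of 0.1, 177 with sample weights, 143 with the stricter filter and 31 to 183 with single samples left out. Within replicates 5 and 6, 21 calls became 103 with median-ratio scaling, 83 with quantile normalization, 80 without a filter, 650 with sample weights and 9 to 69 with single samples left out. The set interaction, 5 genes by limma and 424 at an unadjusted p under 0.05, became 35 without a filter, 3 without the trend, 9 with sample weights, 0 with a pseudocount of 0.1 (385 unadjusted), 0 with the stricter filter (129 unadjusted) and 0 to 13 with single samples left out. In GFP-negative samples, 213 calls became 650 with sample weights, 113 with the stricter filter (at least 1 RPKM in 12 samples) and 115 to 444 with single samples left out, the last without spinal replicate 4. The fraction by culture interaction, 71 genes, became 108 with median-ratio scaling, 240 with sample weights, 47 with the stricter filter, 453 with the replicate block and 41 to 234 with single samples left out. The cause of these shifts was not tested, except that the stricter filter tests fewer genes and the fits of one replicate set hold fewer samples.

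Depth limits the genes of low level: below about 1 RPKM the added 1 compresses differences, and no counts were used here for an interval.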
